A study of Rattus norvegicus with 6 samples.

Results

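Expression of 10 genes was followed in cardiomyocytes cultured from newborn rats: Wfdc1, Nap1l5, Plppr5, Rab3b, Ptprr, Galnt13, Clic2, Gabrb2, Klhl33 and Adhfe1. They were picked by symbol, from earlier results of the same arrays, because their expression changed strongly with phenylephrine or differed between phenylephrine and stretch; no numerical limit was set for that choice. Their signals under phenylephrine against control and under stretch against phenylephrine therefore describe how they were chosen, so no p is given for a gene there and counts past the threshold support nothing. The 10 genes were read by 15 of the 31042 probe sets tested and were 10 of the 14217 genes with a symbol of their own on the array. Whether these genes are little studied in myocytes, the reason they stand together, cannot be read from the arrays.

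The study used 6 Affymetrix arrays in groups of 2, which were cells given 50 µmol/l phenylephrine, cells stretched on a membrane to 112% for 24 h, and untreated cells (control). All cells came from hearts of Wistar rats 1 to 2 days old and had been purified by density on Percoll. RNA from more than one cell preparation was combined, per the labels, and the labels name no separate cultures behind the replicates, so p-values measure only the spread between these arrays, which may be technical. Stretched cells had been plated for 36 h on collagen-coated silicone and kept for 24 h without serum before stretch. How long phenylephrine was given, and what surface and serum conditions the phenylephrine and control cells had, is not given in the sources used here.

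Phenylephrine activates α-adrenergic receptors, which couple through Gq proteins to phospholipase C, calcium and MAP kinase signalling and make cultured myocytes grow. Stretch makes them grow by a mechanical route. The 10 genes form no single pathway. Among them are a secreted protein (Wfdc1), 2 membrane proteins best known from neurons (Plppr5 and Gabrb2), a vesicle GTPase (Rab3b), a phosphatase that acts on MAP kinases (Ptprr), a glycosylation enzyme (Galnt13) and a mitochondrial enzyme (Adhfe1).

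The arrays had like medians, from 8.30 to 8.33 log2, but phenylephrine replicate 2 stood apart in several ways. Its interquartile range was 1.70 log2, against 1.80 to 1.92 on the other arrays, and its spike-in hybridization controls (18 probe sets) had a median of 9.31 log2, against 10.1 to 10.4. Signs of RNA quality differed on both phenylephrine arrays. The 3′ probe set minus the 5′ one was 0.25 and 0.30 log2 for GAPDH with phenylephrine, 0.36 and 0.48 with stretch and 0.36 and 0.59 in control. For actin it was 1.04 and 0.97 log2 with phenylephrine, 1.10 and 1.41 with stretch and 1.18 and 1.39 in control. Hexokinase went the other way, with 1.65 and 1.88 log2 with phenylephrine, 1.45 and 1.29 with stretch and 1.49 and 1.29 in control. The part of these differences in the results was not tested. The labelled cell type was plain, since the 9 myocyte markers measured averaged 14.29 and 14.43 log2 on the phenylephrine arrays, 14.12 and 14.33 on the stretch arrays and 14.29 and 14.17 on the control arrays.

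With phenylephrine, 3 of the 10 genes were higher than in control and 7 were lower, and in all 10 the phenylephrine and control arrays did not overlap. All 10 were past the threshold of the limma fit, an adjusted p of 0.05 over all probe sets, where 2.41% of all genes were past it as higher and 2.36% as lower; arrays did not overlap in 46.9% of all genes. Nothing is read from these counts, since the genes were chosen on this contrast. The median size of the difference was 1.55 log2 in the 10 genes and 0.098 log2 in all genes. Below, values are log2 signals of the brightest probe set of a gene, that is, the one highest on average over the 6 arrays. A difference is the first group's mean less the second's, n = 2 arrays each, and its standard error (SE) comes from the limma fit. Over all probe sets, 3.6% passed for phenylephrine against control, 1.33% for stretch against phenylephrine and 0.345% for stretch against control.

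**Figure D1:**
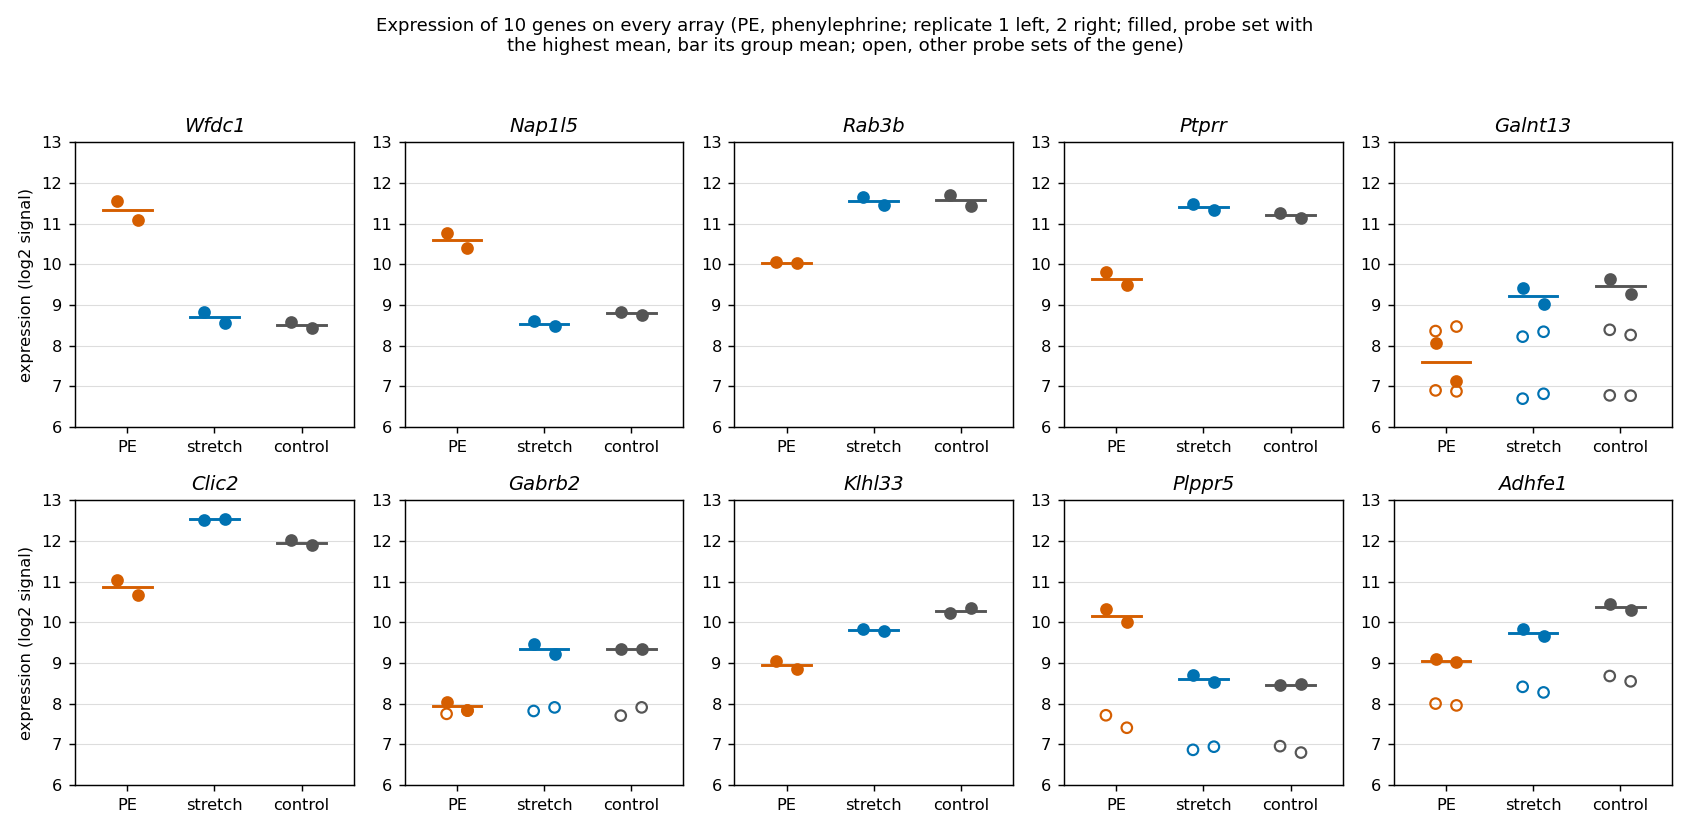
Signal of each gene on every array in log2 (vertical axis), with the phenylephrine (PE), stretch and control arrays from left to right, filled points for the probe set with the highest mean, a bar at its group mean, and open points for other probe sets of the gene. Wfdc1, Nap1l5 and Plppr5 are higher on both phenylephrine arrays than on the other 4 and the remaining 7 genes are lower, while the open points of Gabrb2 and Galnt13 stay level.

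The genes that were higher with phenylephrine were Wfdc1, Nap1l5 and Plppr5. Wfdc1 encodes a small secreted protein with a WAP domain, the fold of several protease inhibitors, and is known from stromal and smooth muscle cells. Its signal (probe set 1387873_at) was 11.57 and 11.09 log2 with phenylephrine, 8.83 and 8.57 with stretch and 8.58 and 8.43 in control. Both phenylephrine arrays stood far above the other 4, and stretch and control overlapped. The phenylephrine mean was 7.09-fold that of control (difference 2.82 ± 0.17 log2, SE), rank 1 of all 14217 genes by rise.

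Nap1l5 is an intronless gene of the nucleosome assembly protein family that in mouse and human is imprinted and expressed from the paternal copy. Its signal (1375861_at) was 10.78 and 10.40 log2 with phenylephrine, 8.60 and 8.49 with stretch and 8.83 and 8.75 in control. The groups lay in 3 separate bands, with stretch the lowest. The phenylephrine mean was 3.48-fold that of control (1.80 ± 0.13 log2, SE), and stretch minus phenylephrine was -2.05 ± 0.13 log2 (SE).

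Plppr5 belongs to a family of brain membrane proteins related to lipid phosphatases, and in neurons it is known to promote thin cell protrusions. Its signal (1394966_at) was 10.33 and 10.00 log2 with phenylephrine, 8.70 and 8.53 with stretch and 8.46 and 8.48 in control, a 3.24-fold difference between phenylephrine and control (1.69 ± 0.12 log2, SE). A dimmer probe set of the gene (1393733_at) moved the same way with a smaller difference, 0.69 ± 0.10 log2. It read 7.71 and 7.41 log2 with phenylephrine, 6.86 and 6.94 with stretch and 6.95 and 6.80 in control.

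Of the 3 genes that were higher, Nap1l5 and Plppr5 have a promoter in the RefSeq table used here (assembly GRCr8), and both are shown to set their base composition and short motifs beside genes that went the other way. Each line gives the 250 bases before the annotated start of the gene, 5′ to 3′ in the direction of transcription, for Nap1l5 at chr4:89354705-89354954 (minus strand) and for Plppr5 at chr2:208292975-208293224 (plus strand). Capitals mark matches, on either strand, to any of the motifs searched, which were the core TGACG of the cyclic AMP response element, the AP-1 site TGANTCA, the GATA box AGATAA, the E-box CANNTG, the TATA box TATAAA, and the CArG and MEF2 boxes. None of these searched matches overlap in the lines shown.
Nap1l5: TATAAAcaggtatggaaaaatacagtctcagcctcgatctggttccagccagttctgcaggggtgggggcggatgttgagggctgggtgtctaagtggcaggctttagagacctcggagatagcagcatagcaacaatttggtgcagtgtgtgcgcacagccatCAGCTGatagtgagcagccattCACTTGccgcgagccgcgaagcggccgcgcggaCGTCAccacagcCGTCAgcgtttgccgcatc
Plppr5: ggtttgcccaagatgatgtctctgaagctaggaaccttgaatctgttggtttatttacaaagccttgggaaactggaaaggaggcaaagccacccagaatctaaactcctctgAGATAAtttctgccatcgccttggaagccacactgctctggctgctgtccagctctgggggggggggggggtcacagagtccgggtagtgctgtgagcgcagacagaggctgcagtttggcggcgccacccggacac
The Nap1l5 window held 2 TGACG cores, both read on the reverse strand, spanning bases 31 to 27 and 19 to 15 before the start. It also held 2 E-boxes and, at its far end, TATAAA from base 250 to 245 before the start. The Plppr5 window held a GATA box and none of the other motifs. In all 33469 promoters of the table, TGACG occurs in 18.2%, AGATAA in 10.3%, TATAAA in 12.9% and CANNTG in 65.5%. A match describes the letters and is not a binding site.

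The 7 genes that were lower with phenylephrine differed in where the stretch arrays lay. They overlapped control in Rab3b, Gabrb2 and Galnt13, lay above control in Ptprr and Clic2, and lay between phenylephrine and control in Klhl33 and Adhfe1. Rab3b encodes a small GTPase of regulated vesicle release in neurons and gland cells. Its signal (1370061_at) was 10.06 and 10.02 log2 with phenylephrine, 11.66 and 11.47 with stretch and 11.70 and 11.44 in control. Both stretch values lay between the control values, and the phenylephrine mean was 2.89-fold lower than that of control (-1.53 ± 0.13 log2, SE).

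Ptprr encodes a receptor-type tyrosine phosphatase that binds and inactivates ERK MAP kinases through a kinase interaction motif. Its signal (1368358_a_at, a probe set that reads several transcripts of the gene) was 9.80 and 9.48 log2 with phenylephrine, 11.48 and 11.34 with stretch and 11.26 and 11.14 in control. Both stretch arrays lay above both control arrays and both phenylephrine arrays below them, and phenylephrine was 2.95-fold lower than control (-1.56 ± 0.14 log2, SE).

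Gabrb2 encodes the β2 subunit of the GABA-A receptor, a chloride channel opened by the transmitter GABA. One probe set (1377773_at) read 8.05 and 7.86 log2 with phenylephrine, 9.47 and 9.22 with stretch and 9.33 and 9.34 in control, so that phenylephrine was 2.61-fold lower than control (-1.38 ± 0.11 log2, SE). The other probe set (1369818_at) read 7.75 and 7.83 log2 with phenylephrine, 7.82 and 7.91 with stretch and 7.70 and 7.91 in control, with all groups overlapping (-0.02 ± 0.08 log2 for phenylephrine against control). The fall thus rests on 1 of 2 probe sets. The level one was dim, below the array medians of 8.30 to 8.33 log2 throughout, and whether background limits its differences was not tested. Which transcripts each probe set reads was not determined.

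Galnt13 encodes a GalNAc-transferase, an enzyme that starts mucin type O-glycosylation and is known from neurons. Its brightest probe set (1383021_at) had the widest spread of the 10 genes, with 8.05 and 7.13 log2 under phenylephrine, 9.42 and 9.03 under stretch and 9.64 and 9.28 in control. Its difference, -1.87 ± 0.28 log2 (SE) or 3.64-fold lower, had rank 1 by fall among all genes, with an SE that was also the largest of the 10. Without phenylephrine replicate 2 it was -1.40 log2, a smaller fall than the -1.51 log2 of Rab3b on that setting. The other probe sets did not follow it. Probe set 1377565_at read 8.36 and 8.47 log2 with phenylephrine, 8.22 and 8.34 with stretch and 8.39 and 8.26 in control. Probe set 1386047_at read 6.90 and 6.87 log2 with phenylephrine, 6.69 and 6.81 with stretch and 6.78 and 6.77 in control. Their differences from control under phenylephrine were 0.09 ± 0.08 and 0.11 ± 0.06 log2, so the fall rests on 1 of 3 probe sets. Probe set 1386047_at lay below the lower quartile of every array, 7.64 to 7.67 log2, as did 1383021_at on phenylephrine replicate 2. Probe set 1377565_at lay near the array medians of 8.30 to 8.33 log2. Whether background limits the differences of such dim signals was not tested.

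Klhl33 and Adhfe1 showed a graded pattern, with stretch between phenylephrine and control. Klhl33 belongs to the kelch-like family, many of whose members bring substrates to CUL3 ubiquitin ligases. Its signal (1396237_at) was 9.06 and 8.86 log2 with phenylephrine, 9.85 and 9.80 with stretch and 10.22 and 10.35 in control, in 3 bands that did not overlap. Phenylephrine was 2.51-fold lower than control (-1.33 ± 0.11 log2, SE), and the stretch difference of -0.46 log2 was 35.0% of the phenylephrine difference on the log2 scale.

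Adhfe1 encodes a mitochondrial transhydrogenase that oxidizes gamma-hydroxybutyrate. Its signal (1389548_at) was 9.09 and 9.02 log2 with phenylephrine, 9.83 and 9.66 with stretch and 10.45 and 10.30 in control, again in 3 bands. Phenylephrine was 2.50-fold lower than control (-1.32 ± 0.11 log2, SE), and the stretch difference was 48.3% of that size. The dimmer probe set (1384073_at) gave the same order, with 8.00 and 7.96 log2 under phenylephrine, 8.41 and 8.28 under stretch and 8.68 and 8.55 in control.

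In Clic2, as in Ptprr, stretch lay above control and phenylephrine below it, and in Nap1l5 the sides were the other way round. Clic2 encodes a member of the chloride intracellular channel family that in vitro inhibits ryanodine receptors, the calcium release channels of muscle. Its signal (1381993_at) was 11.05 and 10.67 log2 with phenylephrine, 12.52 and 12.55 with stretch and 12.03 and 11.89 in control. The 3 groups did not overlap. Phenylephrine was 2.15-fold lower than control (-1.10 ± 0.15 log2, SE), rank 38 among falls, while stretch was 3.19-fold higher than phenylephrine (1.67 ± 0.15 log2, SE), rank 8 among genes higher under stretch than under phenylephrine.

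Rab3b and Ptprr, among the lower genes with a promoter in the table, are shown for comparison with Nap1l5 and Plppr5, with the same marking. Rab3b lies at chr5:128858841-128859090 (plus strand) and Ptprr at chr7:53685989-53686238 (plus strand) of GRCr8.
Rab3b: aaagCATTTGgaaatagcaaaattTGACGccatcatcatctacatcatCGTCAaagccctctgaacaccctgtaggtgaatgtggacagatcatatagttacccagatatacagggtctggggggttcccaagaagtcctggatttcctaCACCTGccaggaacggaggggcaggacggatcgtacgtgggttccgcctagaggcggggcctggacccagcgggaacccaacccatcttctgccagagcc
Ptprr: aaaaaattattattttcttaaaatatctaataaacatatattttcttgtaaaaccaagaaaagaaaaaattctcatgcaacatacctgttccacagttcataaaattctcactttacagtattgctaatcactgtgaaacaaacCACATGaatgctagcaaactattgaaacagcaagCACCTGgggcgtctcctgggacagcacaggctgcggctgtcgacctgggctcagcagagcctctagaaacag
Rab3b held 2 TGACG cores and 2 E-boxes, and Ptprr held 2 E-boxes. Of the 6 genes in the table (these 4, Gabrb2 and Klhl33), TGACG was in 3, Nap1l5 of the higher genes and Rab3b and Klhl33 of the lower. E-boxes were in 4, and neither the AP-1 site nor the CArG or MEF2 box was in any window, which in all promoters occur in 6.34%, 1.5% and 1.68%. The GC content was 57.2% in Nap1l5 and 55.6% in Plppr5, and 53.6% in Rab3b, 43.2% in Gabrb2, 41.6% in Klhl33 and 38.0% in Ptprr, beside quartiles of 44.0% and 60.0% over all promoters. No motif searched was in all 6 windows, and none set the higher genes apart from the lower ones.

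Stretch against control is a contrast that the choice of genes did not name, although its arrays are those of the other contrasts, so it is not independent of the choice. In the limma fit 0 of the 10 genes passed an adjusted p of 0.05, where 0.521% of all genes did, and 3 had an unadjusted p under 0.05, where 7.24% of all genes did. Stretch and control arrays did not overlap in 6 of the 10 genes, where 41.1% of all genes did not overlap. Stretch was the higher in 3 of them (21.6% of all genes) and the lower in 3 (19.4% of all genes). The median size of the stretch difference was 0.22 log2 in the 10 genes and 0.064 log2 in all genes.

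Adhfe1 came nearest to the threshold, at -0.64 ± 0.11 log2 (SE; 95% interval -0.89 to -0.39; adjusted p = 0.0857). Setting the array medians to 0 gave adjusted p = 0.0483 in limma and quantile normalization 0.00864, both past the threshold. Leaving out dim probe sets gave 0.0662, no mean-variance trend 0.0629 and fitting only the 2 groups 0.0934, none past it. A replicate block, given at the end, was also past it. With 1 array omitted the difference ran from -0.72 to -0.55 log2. Its dimmer probe set had -0.27 ± 0.08 log2 (adjusted p = 0.477). Klhl33 had -0.46 ± 0.11 log2 (interval -0.72 to -0.21; adjusted p = 0.262). Clic2 had 0.57 ± 0.15 log2 (interval 0.23 to 0.91, adjusted p = 0.339). For Clic2 quantile normalization gave 0.00964 and the block was past the threshold too. Leaving out dim probe sets gave 0.239, no mean-variance trend 0.238 and only the 2 groups 0.113. The intervals are for single genes and are not adjusted for the number tested.

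The other 7 genes had adjusted p = 1 under stretch. Rab3b had -0.01 log2 (95% interval -0.32 to 0.30) and Gabrb2 0.01 log2 (-0.25 to 0.26). Wfdc1 had 0.20 log2 (-0.19 to 0.58), Plppr5 0.15 log2 (-0.13 to 0.43), Ptprr 0.21 log2 (-0.11 to 0.53) and Nap1l5 -0.25 log2 (-0.55 to 0.05). Galnt13 had -0.23 log2, and its interval was the widest, from -0.88 to 0.41. In none of the 10 genes did the stretch interval reach the size of the phenylephrine difference, a value used in their choice. Choosing genes for large phenylephrine differences favours this, and both differences share the control arrays, so nothing is read from it. A p above the threshold does not show that stretched and control cells had equal levels.

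**Figure D2:**
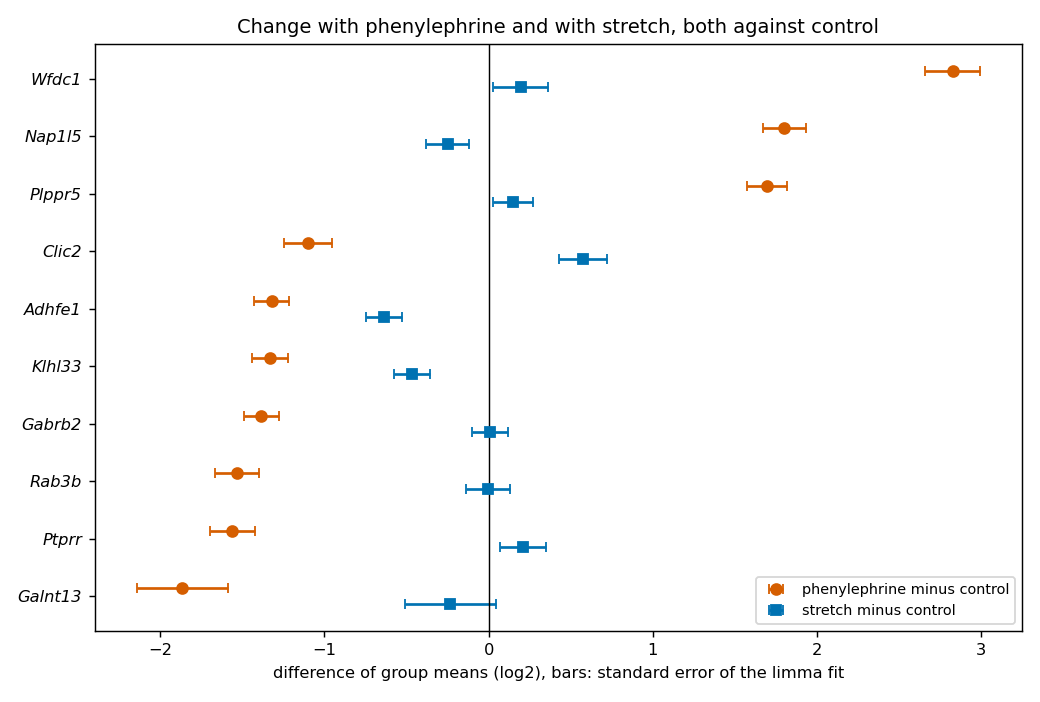
Difference from control in log2 (horizontal axis) for each gene, circles for phenylephrine and squares for stretch, with bars for the standard error of the limma fit; both differences use the same 2 control arrays. Phenylephrine differences run from -1.87 (Galnt13) to 2.82 log2 (Wfdc1), while stretch differences stay between -0.64 (Adhfe1) and 0.57 log2 (Clic2).

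Stretch and phenylephrine were also set directly against each other, a contrast used in the choice and one that shares its phenylephrine arrays with the first. Stretch was higher in 7 genes and lower in 3, all past the threshold in the fit, as were 1.84% of all genes (0.999% higher, 0.837% lower), and nothing is read from these counts. As a description, the stretch mean was 6.19-fold lower than the phenylephrine mean in Wfdc1, 4.14-fold lower in Nap1l5 and 2.92-fold lower in Plppr5. It was 3.41-fold higher in Ptprr, 3.10-fold in Galnt13, 2.88-fold in Rab3b and 2.62-fold in Gabrb2. The graded genes differed least, with stretch 1.82-fold above phenylephrine in Klhl33 and 1.61-fold in Adhfe1.

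The phenylephrine arrays differed from each other in one direction, since replicate 1 read above replicate 2 in all 10 genes, the higher and the lower alike. The gap ran from 0.04 log2 in Rab3b to 0.92 log2 in Galnt13, with a median of 0.32 log2 in the 10 genes and of 0.14 log2 in all genes. Replicate 1 was also above replicate 2 in 67.7% of all genes, and in 87.5% of the 6819 genes whose mean signal lay within the range of the 10 genes, from 8.76 to 11.79 log2. The differences from control were therefore larger on replicate 1 for the higher genes and on replicate 2 for the lower ones. They were 3.06 log2 on replicate 1 and 2.59 log2 on replicate 2 for Wfdc1, and -1.40 and -2.33 log2 for Galnt13. Leaving out replicate 2, the array with the low spike-in signal, gave -0.92 log2 in Clic2 and -1.29 log2 in Gabrb2. Leaving out either phenylephrine array turned no direction. Phenylephrine and control arrays did not overlap in any of the 10 genes, nor in 46.9% of all genes. The choice of the genes on this contrast favours that, so nothing is read from it.

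**Figure D3:**
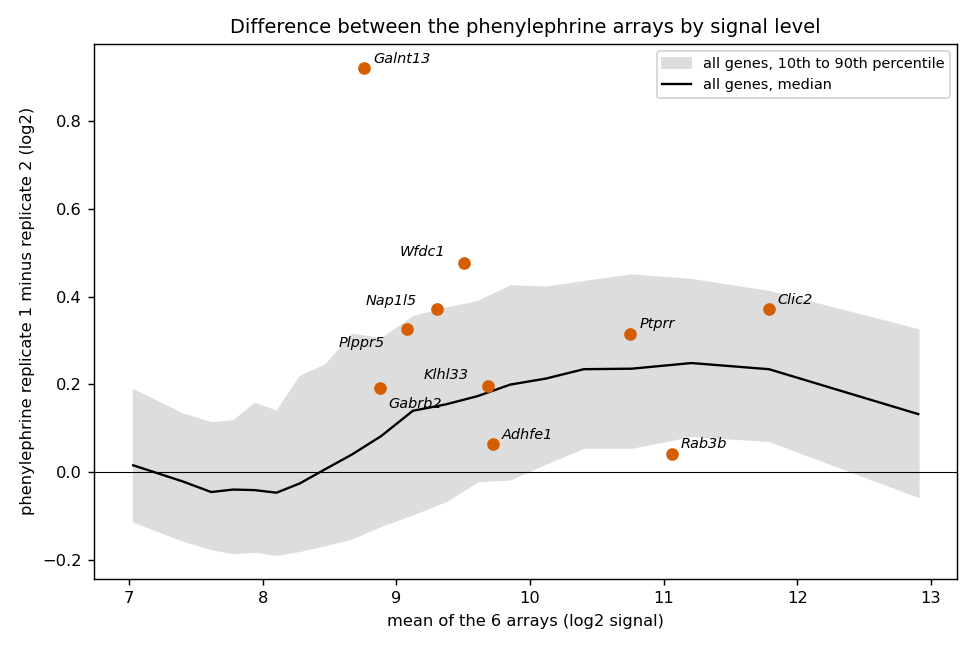
Phenylephrine replicate 1 minus replicate 2 in log2 (vertical axis) against the mean signal of the 6 arrays in log2 (horizontal axis), with points for the 10 genes, a line for the median of all genes in 20 bins of level and a band from their 10th to 90th percentile. All 10 points lie above 0; Rab3b is lowest at 0.04 and Galnt13 highest at 0.92 log2.

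Markers of other cell types moved with phenylephrine as well, and in bulk RNA fewer cells of a type and less RNA per cell cannot be told apart. All 9 fibroblast markers measured were below 0 for phenylephrine against control (median -0.53 log2), and 4 fell past the threshold, the matrix genes Dpt (-0.96 log2), Col3a1 (-0.62) and Postn (-0.58) and the receptor gene Pdgfra (-0.53). Single markers are named here after their values were seen. Their mean signal was 11.21 and 11.09 log2 with phenylephrine, 11.35 and 11.35 with stretch and 11.68 and 11.64 in control, the same order as in Klhl33 and Adhfe1. Under stretch all 9 were also below 0 (median -0.24 log2), and 0 passed in limma, 4 having an unadjusted p under 0.05. Of 8 endothelial markers 7 were below 0 with phenylephrine and 2 fell, Kdr (-0.93 log2) and Emcn (-0.55). The endothelial list means were 8.49 and 8.43 log2 with phenylephrine, 8.63 and 8.59 with stretch and 8.71 and 8.75 in control. Of 8 leukocyte markers 6 were below 0 and 1 fell, the macrophage gene Cd68 (-0.52 log2). The leukocyte list means were 9.31 and 9.19 log2 with phenylephrine, 9.49 and 9.43 with stretch and 9.51 and 9.49 in control. Both lists thus had the order of the fibroblast markers too, with stretch and control close together in the leukocyte list. Other cell types' part in the 7 falls was not tested.

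Among 8 smooth muscle and pericyte markers, the class in which Wfdc1 is known, 4 were above 0 with phenylephrine and 4 below. The median difference was 0.02 log2. Past the threshold 3 rose and 0 fell, and the lowest difference was -0.17 log2. The list means were 9.77 and 9.67 log2 with phenylephrine, 9.53 and 9.49 with stretch and 9.18 and 9.17 in control. Acta2, smooth muscle actin, rose by 0.96 log2 and Cspg4, a pericyte proteoglycan, by 1.297 log2. Cnn1, a calponin of the contractile apparatus, rose most, by 2.55 log2, and it also rose by 1.45 log2 with stretch. Of 14 neuronal markers 13 were above 0 with phenylephrine and 1 rose, Uchl1, a ubiquitin hydrolase, with list means of 7.98 and 8.01 log2 with phenylephrine and 7.87 and 7.91 in control. Uchl1 also rose with stretch (0.88 ± 0.11 log2, SE), the 1 neuronal marker past the threshold there. Of 8 mesothelial and epithelial markers the keratin genes Krt8 (0.34 log2) and Krt18 (0.56) rose, and of 5 Schwann and glial markers 0 passed in limma, with 0 at an unadjusted p under 0.05. None of the table's values is 0, the lowest being 5.80 log2, so no marker can be called absent. The part of these markers in the results was not tested.

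Relatives of the 10 genes, listed by family or pathway, moved about as often as other genes. Of 191 relatives measured, 5 rose and 3 fell with phenylephrine, 4.19% against 4.77% of all genes, with a median of 0.01 log2 against 0.00 log2. An unadjusted p under 0.05 in limma was found in 39 of the 191, beside 19.4% of all genes. In 4 of the 10 lists 0 relatives passed in limma, and each held 3 to 6 relatives with an unadjusted p under 0.05. These were the 13 WAP domain and protease inhibitor genes (Slpi, a leukocyte protease inhibitor, had the largest difference, -0.55 ± 0.15 log2, adjusted p = 0.105), the 26 genes of RAB3 and RAB27 vesicle release (Rab3a 0.41 ± 0.13, adjusted p = 0.155), the 10 phosphatases and MAP kinase genes around Ptprr (Map2k1, the kinase that activates ERK, 0.63 ± 0.14, adjusted p = 0.0513) and the 16 phospholipid phosphatase genes around Plppr5 (Plpp7 0.33 ± 0.12, adjusted p = 0.224).

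In each of the other 6 lists at least 1 relative passed in limma, where 4.77% of all genes did. An unadjusted p under 0.05 in limma was found in 19.4% of all genes. It was found in 3 of 9 CLIC and ryanodine receptor genes, 4 of 17 dehydrogenases and 9 of 38 kelch-like and CUL3 genes. In the GABA, O-glycosylation and nucleosome assembly lists it was found in 1 of 22, 5 of 20 and 1 of 21. Among 9 CLIC and ryanodine receptor genes, Clic5 rose (0.54 ± 0.10 log2, adjusted p = 0.0296) and Ryr3, a ryanodine receptor, rose (0.45 ± 0.07, adjusted p = 0.0137), in the direction opposite to Clic2. Among 17 hydroxy acid and alcohol dehydrogenases, the ketone body enzyme gene Bdh1 rose (0.71 ± 0.09, adjusted p = 0.00922) and Bdh2 fell (-0.82 ± 0.12, adjusted p = 0.0114). Of 38 kelch-like and CUL3 genes, 27 were below 0 but the one past the threshold, Klhl40, which stabilizes thin filament proteins of muscle, rose (0.67 ± 0.11, adjusted p = 0.022). The lowest difference in that list was -0.83 log2, not past the threshold. At an unadjusted p under 0.05 in limma, 5 of these genes were higher and 4 lower. Of 22 GABA receptor and GABA handling genes, Slc6a6, the taurine transporter gene, rose (0.68 ± 0.13, adjusted p = 0.0301), while the differences of the rest ran from -0.06 to 0.13 log2. Of 20 O-glycosylation genes the sialyltransferase gene St3gal1 fell (-0.58 ± 0.12, adjusted p = 0.0489), and of 21 nucleosome assembly and imprinted genes Mest fell (-0.63 ± 0.12, adjusted p = 0.0296). With stretch, 0 of the 191 rose and 1 fell in limma, 10 and 8 having an unadjusted p under 0.05, beside 7.24% of all genes. The one that fell was Enpp2, which makes lysophosphatidic acid (-0.54 ± 0.07, adjusted p = 0.0292), named after its value was seen.

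**Figure D4:**
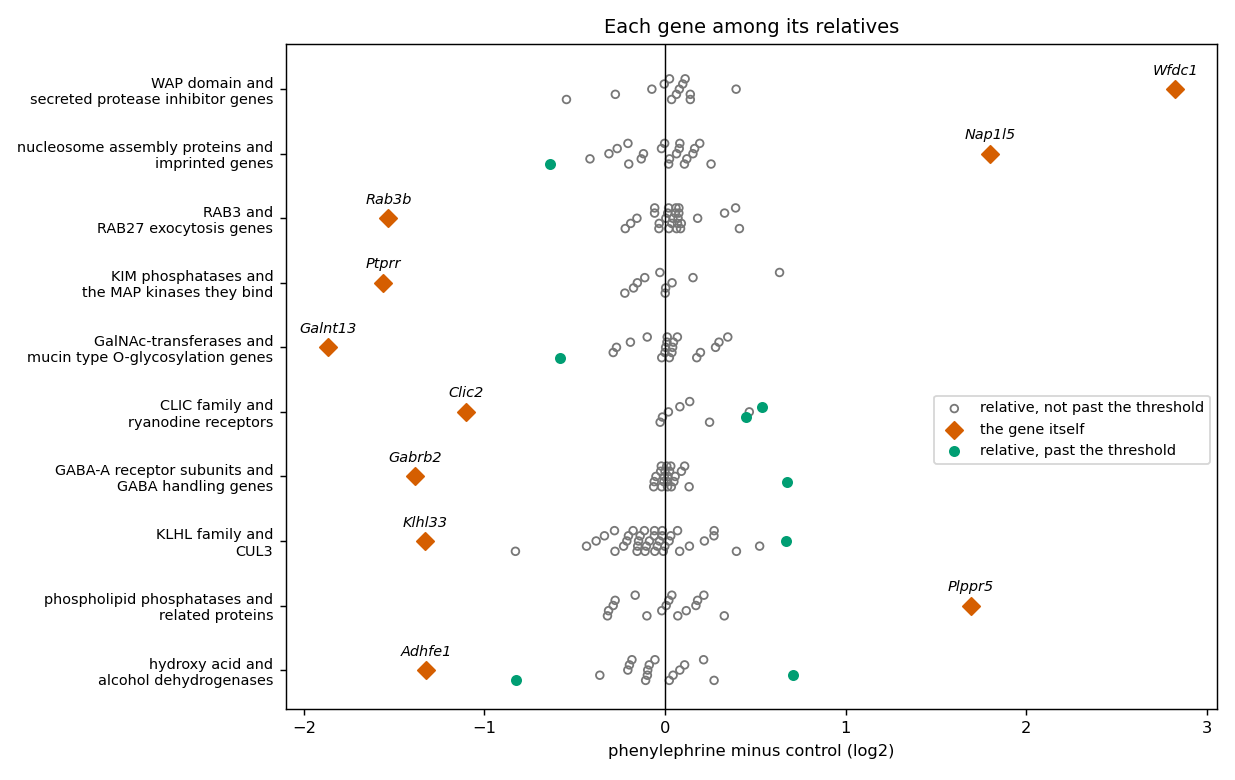
Phenylephrine minus control in log2 (horizontal axis) for the relatives of each gene, open circles where the adjusted p of limma was above 0.05 and filled circles where it was below, with a diamond for the gene itself. Each diamond lies outside the range of its relatives, which the choice of the genes for large differences brings with it.

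Among genes outside the 10, those most like each of the 10 were sought by the Euclidean distance between profiles over the 6 arrays. Each profile was taken as its difference from the control mean. Wfdc1 was nearest to Inha, the inhibin α subunit gene (distance 0.31 log2), and to Eno3, the muscle enolase gene (0.50). Nap1l5 was nearest to Nid2, a basement membrane gene (0.42), and Pde4b, a cyclic AMP phosphodiesterase gene (0.47). Plppr5 was nearest to Nid2 as well (0.25) and to Rgs2, a regulator of Gq signalling (0.30).

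Among the lower genes, Rab3b was nearest to Kcnip2, a subunit of potassium channels (0.42), and to Hamp, which encodes the iron hormone hepcidin (0.44). Gabrb2 was nearest to Hamp (0.25) and Igfbp5 (0.29). Within the 10 genes Rab3b and Gabrb2 were closest to each other (0.30), and Ptprr lay 0.38 from Rab3b. Gabrb2 and Ptprr were thus nearer to Rab3b than Kcnip2 was. Ptprr was nearest to Reg3b, a secreted lectin (0.34), and Arrdc3 (0.46). Klhl33 was nearest to Ntn1, the netrin gene (0.24), and Tmem140 (0.27), and Adhfe1 to Trim2 (0.16) and Smoc2, a matrix protein gene (0.21).

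Clic2 was nearest to Pycard, an adaptor of the inflammasome, at 0.40. Pycard read 9.22 and 9.17 log2 with phenylephrine, 10.76 and 10.65 with stretch and 10.10 and 10.07 in control, with the groups in the same order as in Clic2. The second, Isyna1 (0.53), the inositol phosphate synthase gene, had the same order. Galnt13 had no close partner, with Ctso at 0.77 and Cxcl11 at 0.86. These likenesses rest on 6 arrays in 3 groups, and with 14217 profiles to choose from some are near by number alone.

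**Figure D5:**
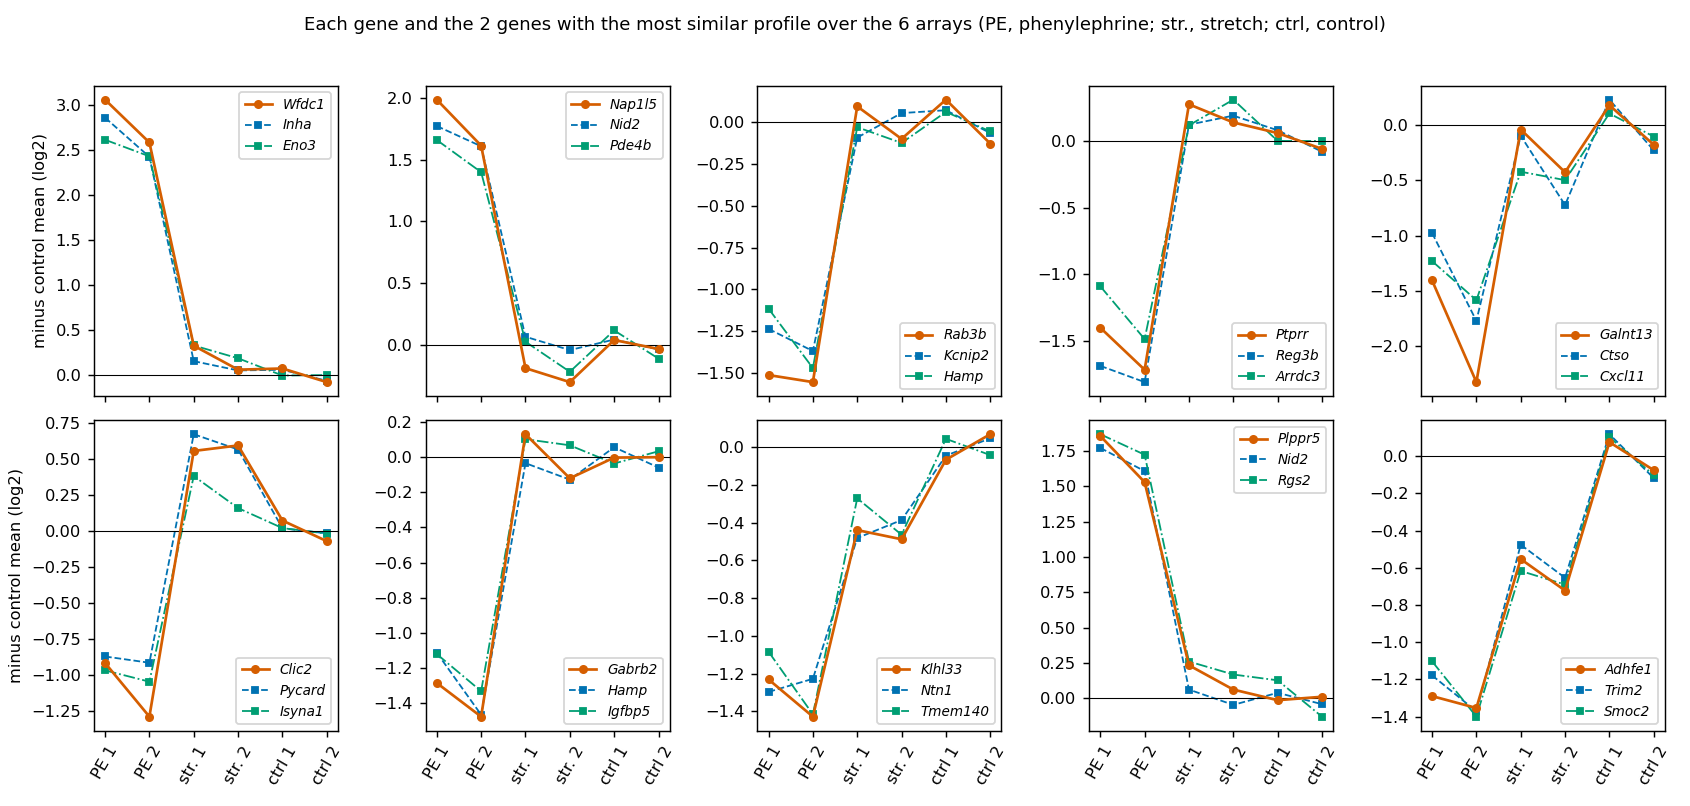
Signal minus the control mean in log2 (vertical axis) on the phenylephrine (PE), stretch (str.) and control (ctrl) arrays for each of the 10 genes (solid line). Broken lines show the 2 genes outside the 10 with the smallest Euclidean distance to it. The lines only join the arrays of a gene. Adhfe1 and its neighbours Trim2 and Smoc2 step up from phenylephrine over stretch to control, and Clic2 and Pycard lie above control with stretch and below it with phenylephrine.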

How the data were processed

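RNA of 6 samples was measured on single-channel Affymetrix arrays. The authors deposited 1 value per probe set and array, taken here as log2 expression because the values ran from 5.80 to 15.2. How signals were corrected, summarised per probe set and normalized is not given in the sources used here. Detection calls were not used. For arrays, their number limits the precision, and whole-array scaling hides a change shared by most genes. After 57 array controls were left out, 31042 probe sets were tested. Symbols came from the platform annotation of 2016. Probe sets with several symbols (436) or none (9780) were not named. No ID was changed by matching to RefSeq GRCr8.

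With limma 3.58.1 (lmFit, eBayes with a mean-variance trend) in R 4.3.3, group means were estimated from the 6 arrays together. Tests were two-sided, p-values were adjusted by Benjamini-Hochberg over all probe sets, and an adjusted p under 0.05 passed. There were 3 residual degrees of freedom, to which eBayes added 4.8. An exact permutation test of 2 arrays against 2 was not used, since it cannot pass the threshold. Figures and summaries were made with Python 3.11.15. The 10 genes and the lists of relatives and markers were chosen with earlier results of these data known; list members came from knowledge of the families. Named relatives are up to 3 per list past the threshold with the largest phenylephrine difference, or else the largest difference as a value. Named neighbours are the 2 nearest profiles per gene among genes outside the 10. Promoters of 6 of the 10 genes were in the RefSeq table. Alternatives were quantile normalization, median centring, a filter on dim probe sets, no variance trend, only the groups compared, a replicate block, each array left out, and another choice of probe set per gene.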

Additional observations from a re-analysis of the deposited data

How the results depend on the processing

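The number of probe sets past the threshold over the whole array depended on the settings, 1117 for phenylephrine against control, 413 for stretch against phenylephrine and 107 for stretch against control as reported. Quantile normalization gave 2790, 1527 and 386, and a replicate block 5384, 3734 and 1028, with 40%, 65.3% and 69.9% of the calls higher, against 48.2%, 54.0% and 88.8%. Quantile normalization made 72.5% higher in the last comparison. Fitting only the 2 groups compared gave 661 and 230 for the first 2 comparisons. With 1 array omitted, where the lone array of a group is assumed to vary like the others, the counts ranged from 189 to 1249, from 51 to 473 and from 26 to 112, lowest without control replicate 2, stretch replicate 1 and stretch replicate 1 in turn, and under the reported count divided by 1.5 without any control or stretch array in the first comparison and the last and without any array but phenylephrine replicate 1 in the other. Omitting phenylephrine replicate 1 or 2 left 28.9% or 71% of the phenylephrine calls higher. Deviations of replicate 1 correlated between groups (0.487 to 0.673), but the labels do not say that equal numbers belong together, so the block is no pairing by design. With the replicate block, all 10 genes were past the threshold under phenylephrine, and Clic2, Adhfe1 and Klhl33 were past it under stretch against control (adjusted p = 0.00919, 0.000217 and 0.00731), as was the dimmer probe set of Adhfe1 (0.0272).

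For the brightest probe sets of the 10 genes, 117 of 120 alternative values kept both direction and side of the threshold under phenylephrine against control, which is no support, since these arrays and this contrast chose the genes, as stretch against phenylephrine also did. The exceptions were Clic2 without control replicate 1 or 2 (-1.03 and -1.17 log2) and Galnt13 without control replicate 1 (-1.69), all in the same direction. Under stretch against phenylephrine 107 of 120 did; Adhfe1, Klhl33 and Galnt13 lost their calls under some settings, and all 3 did so without either stretch array. Under stretch against control 110 of 120 did. Signs turned there in Gabrb2 under quantile normalization (-0.0032). With 1 array omitted, stretch against control ranged across 0 in Gabrb2 (-0.12 to 0.13 log2), Rab3b (-0.14 to 0.12), and the dimmer probe sets Gabrb2 1369818_at (-0.045 to 0.16), Galnt13 1377565_at (-0.11 to 0.019), Galnt13 1386047_at (-0.077 to 0.043) and Plppr5 1393733_at (-0.052 to 0.11), and phenylephrine against control did so in Gabrb2 1369818_at (-0.12 to 0.084). The cause was not tested. The counts of relatives past the threshold, 8, 1 and 1, were the same with the probe set of largest spread in place of the brightest.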
